A study of Homo sapiens with 6 samples.

Results

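The dystrophin and sarcoglycan complex is represented here by 9 genes, SGCA, SGCB, SGCD, SGCE, DAG1, DMD, UTRN, SNTB1 and DTNA, of the 28395 genes in the count table. RNA was sequenced from 6 libraries of U251, a human glioblastoma cell line also written U251MG. The WT group had 3 libraries and the NUAK2-CR group had 3. In NUAK2-CR cells, CRISPR-Cas9 with a guide against the kinase gene NUAK2 had been used. The guide was carried by a GFP and an mCherry lentiviral vector, and cells positive for both colours were sorted into lines grown from single cells. The labels do not say which clone the NUAK2-CR libraries came from, nor whether the libraries of a group were separate cultures, so p-values below measure only the spread between these libraries. Both groups are the same cell line, and no source used here says that the WT cells sequenced carried a vector. The 9 genes were picked by name as subunits of this complex, and they were selected on their read counts in the same WT against NUAK2-CR comparison. Their levels and differences are therefore given as a description, and no p-value is printed for them. Those with an adjusted p under 0.05 are counted as called, which is not used as a test of these genes.

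Dystrophin is a long cytoskeletal protein that binds actin at one end and the transmembrane protein dystroglycan at the other. Dystroglycan binds laminin and other matrix proteins outside the cell, sarcoglycans and sarcospan sit beside it in the membrane, and syntrophins and dystrobrevins bind dystrophin or its relative utrophin inside the cell. The complex is best known in muscle, where loss of its subunits causes muscular dystrophies. In astrocytes, shorter dystrophin forms, syntrophin and dystrobrevin hold channels at the endfeet that touch blood vessels and the pial surface.

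Each library held between 29648445 and 55574081 counts. NUAK2 itself was at 1926, 1457 and 1580 normalized counts in the WT libraries and at 799, 961 and 849 in NUAK2-CR, where normalized counts have been rescaled so that every library has the same effective size. The RNA counts of NUAK2 thus remained at 52.6% of their WT mean, with no overlap between groups. The authors reported deletion of NUAK2 in their U251 clones by immunoblot and qPCR, and RNA counts do not give the level of the protein. Of 14873 genes that passed a filter on low counts, 54.5% had an adjusted p under 0.05, so a call in this comparison is common. In NUAK2-CR, 26.3% of tested genes were higher and 28.2% were lower. A fold difference was also required by a stricter rule, and 4.72% of tested genes had an absolute log2 fold change over 2 as well. At an absolute log2 fold change over 1 the share was 13.9%.

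Among the 9 genes, 8 passed the filter and SGCA did not. Of the 8, 5 were called higher in NUAK2-CR (SGCB, SGCE, DMD, UTRN and SNTB1), 1 was called lower (SGCD), and DAG1 and DTNA were not called. SGCD passed the filter only through its WT libraries. The groups did not overlap for 7 of the 8 genes, where 61.4% of all tested genes showed no overlap. SGCD and SNTB1 were the 2 genes past an absolute log2 fold change of 2. The median log2 fold change of the 8 was 0.35, against -0.01 over all tested genes. Because the counts of these genes led to their choice, no more is read from these shares.

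The promoter sequences of 4 genes are shown. Among the tested subunits of the complex, SGCD and DRP2 (dystrophin-related protein 2, a further dystrophin relative) had the largest falls. DMD and UTRN are the pair of dystrophin-family genes that were higher together. SNTB1, with the largest rise among these subunits, had no promoter entry. Each window runs from 250 bases before to 50 bases after the start of the gene's MANE Select transcript, on RefSeq's GRCh38.p14, and is written 5′ to 3′ on the strand of the gene with CG dinucleotides in capitals. SGCD lies at chr5:156326914-156327213 on the plus strand, DRP2 at chrX:101219536-101219835 on the plus strand, UTRN at chr6:144285085-144285384 on the plus strand and DMD at chrX:33211500-33211799 on the minus strand.
SGCD: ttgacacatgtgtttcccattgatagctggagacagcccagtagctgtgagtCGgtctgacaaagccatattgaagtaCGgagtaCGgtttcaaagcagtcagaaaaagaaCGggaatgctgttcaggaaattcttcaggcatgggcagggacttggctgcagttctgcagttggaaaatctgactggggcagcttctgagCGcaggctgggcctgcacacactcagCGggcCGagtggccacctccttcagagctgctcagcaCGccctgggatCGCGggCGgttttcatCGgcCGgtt
DRP2: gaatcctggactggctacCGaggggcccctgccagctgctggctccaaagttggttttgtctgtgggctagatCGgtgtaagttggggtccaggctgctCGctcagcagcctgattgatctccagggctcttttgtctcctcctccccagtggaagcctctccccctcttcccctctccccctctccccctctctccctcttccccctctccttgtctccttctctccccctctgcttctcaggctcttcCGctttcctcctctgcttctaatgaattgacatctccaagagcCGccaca
UTRN: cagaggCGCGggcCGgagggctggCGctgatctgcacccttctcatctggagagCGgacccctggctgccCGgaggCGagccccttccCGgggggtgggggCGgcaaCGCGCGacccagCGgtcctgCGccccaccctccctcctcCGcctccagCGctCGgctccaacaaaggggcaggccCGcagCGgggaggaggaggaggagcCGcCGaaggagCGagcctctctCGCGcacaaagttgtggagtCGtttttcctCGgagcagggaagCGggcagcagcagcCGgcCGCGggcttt
DMD: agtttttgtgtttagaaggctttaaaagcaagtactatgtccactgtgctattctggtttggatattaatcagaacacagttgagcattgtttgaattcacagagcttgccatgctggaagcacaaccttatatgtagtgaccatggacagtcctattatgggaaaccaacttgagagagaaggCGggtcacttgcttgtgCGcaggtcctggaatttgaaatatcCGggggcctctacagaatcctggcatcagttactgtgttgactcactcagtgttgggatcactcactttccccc

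The UTRN window held 30 CG dinucleotides, the SGCD window 13, the DRP2 window 5 and the DMD window 3. The median over 27305 promoter windows, 1 for each gene, was 14. GC content was 72.3% for UTRN, 59.0% for DRP2, 55.3% for SGCD and 44.7% for DMD, beside a median of 58.3%. The windows of UTRN and DMD, 2 genes that were higher in NUAK2-CR by similar amounts, therefore lay on opposite sides of the median for both measures. There were 7 listed windows for DMD and 2 for UTRN, and only that of the MANE Select start is described. Counts per gene do not show which start was used in these cells. The DMD window belongs to the muscle form of full-length dystrophin, and it was the only window of the 4 with a CArG box, the site of serum response factor, which 1.285% of all windows hold. The SGCD window held 1 copy of GGAATG, the core of the TEAD site, found in 14.049% of windows, and 1 copy of GGGCGG, the core of the SP1 site, found in 44.585%. UTRN also held 1 copy of GGGCGG. None of the 4 windows held TATAAA (11.954% of windows) or CCAAT (35.697%). Copies of the E-box CANNTG, present in 68.94% of windows, numbered 3 in SGCD, 2 in DMD, 1 in UTRN and 1 in DRP2. Both strands were searched in every case, and no motif was required to be free of overlap with another. These matches describe letters in a window and do not show that a factor binds there. Among the other genes of the 9, SGCB, DAG1 and DTNA had an entry, and SGCA, SGCE and SNTB1 had none. Their windows held 30 CG dinucleotides for SGCB, 47 for DAG1 and 1 for DTNA.

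**Figure D1:**
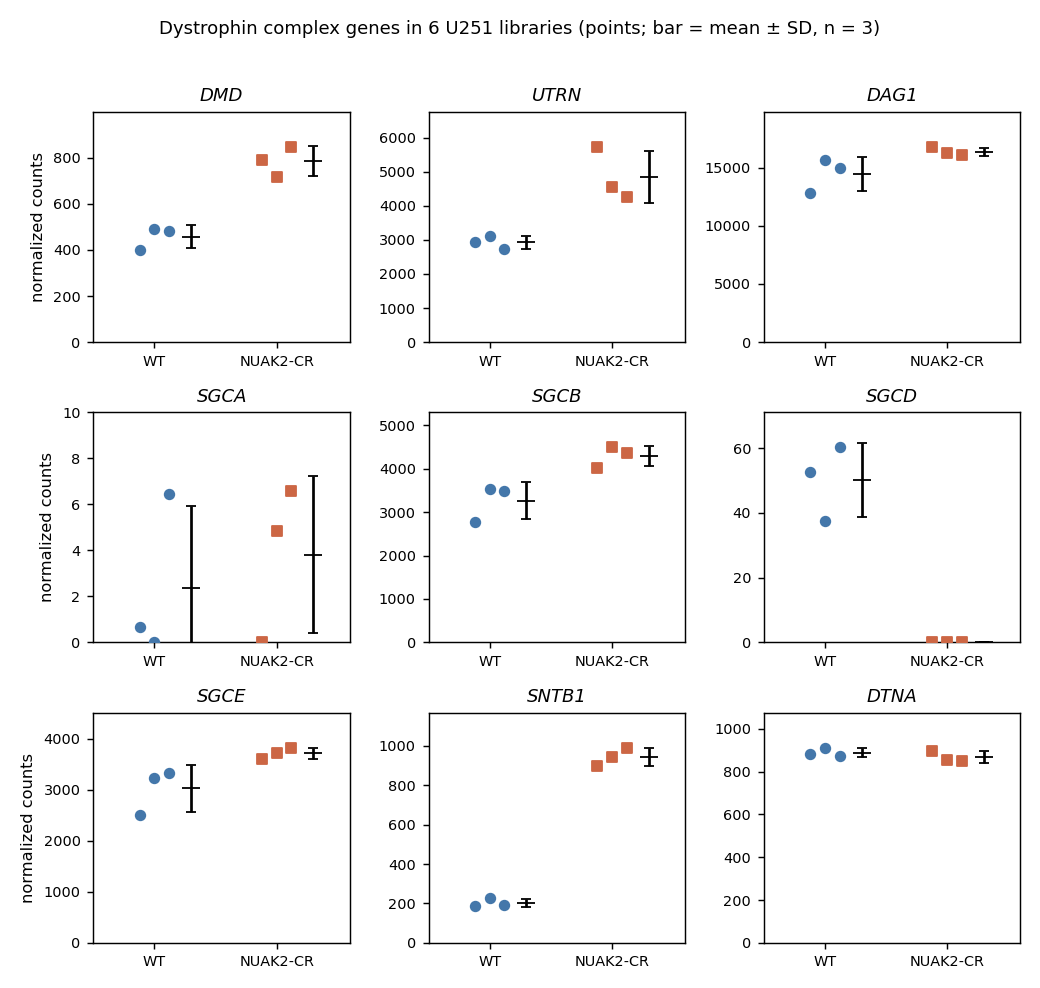
Normalized counts of the 9 complex genes in each of the 6 libraries, with a separate vertical axis from 0 for each gene; circles are WT, squares are NUAK2-CR, and the bar beside each group is its mean ± SD (n = 3). SNTB1 is between 185 and 226 in WT and between 900.3 and 990.2 in NUAK2-CR, SGCD is at 0 in all 3 NUAK2-CR libraries, and for DTNA the groups overlap; the lower end of the WT bar for SGCA falls under 0 and is not drawn.

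Within the dystrophin family, the cytoskeletal anchors of the complex, both members of the set were higher in NUAK2-CR. DMD, which encodes dystrophin, lies at chromosome X, 31119222 to 33339388, minus strand (all coordinates are on GRCh38). The WT libraries held 399, 493 and 480.5 normalized counts of DMD and the NUAK2-CR libraries 792, 718 and 846. Every NUAK2-CR library exceeded every WT library, with a mean of 458 ± 50.9 in WT and 785 ± 64.7 in NUAK2-CR (SD, n = 3 each). The log2 fold change was 0.78 (SE 0.11). In bulk RNA, fewer cells with a transcript and less transcript per cell cannot be told apart, and this holds for every value here.

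UTRN encodes utrophin, which resembles dystrophin in its domains and is present in many tissues, and it lies at chromosome 6, 144285335 to 144853034, plus strand. UTRN was at 2935, 3106 and 2740.0 normalized counts in the WT libraries and at 5723, 4562 and 4259.6 in NUAK2-CR. The groups did not overlap, and NUAK2-CR replicate 1 stood above the other two libraries of its group. The means were 2927 ± 183 and 4848 ± 772 (SD, n = 3 each), and the log2 fold change was 0.73 (SE 0.10). The difference between the DMD and UTRN fold changes was thus smaller than the SE of either.

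DRP2, a further dystrophin relative known from Schwann cells and brain, was not among the 9 genes but was on the list of other subunits and could be tested. DRP2 had 123, 106 and 106 normalized counts in WT, against 25.4, 20.5 and 13.2 in NUAK2-CR. It fell to 17.6% of its WT mean, from 112 ± 9.60 to 19.7 ± 6.15 (SD, n = 3 each). This was a log2 fold change of -2.51 (SE 0.29). The adjusted p was 1.32e-05 by the quasi-likelihood test of edgeR with Benjamini-Hochberg adjustment. All lists were drawn up with earlier results of these data known, so p-values of list genes are not independent support. One gene of the family therefore moved against DMD and UTRN.

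Levels of different genes were compared per length, in CPM (counts scaled to the effective library size) per kilobase of the MANE Select or Ensembl canonical transcript. On this scale UTRN had the highest level in the family, at 6.04 ± 0.38 in WT and 10.01 ± 1.59 in NUAK2-CR (SD, n = 3 each). DMD was at 0.872 ± 0.0970 and 1.497 ± 0.12 on the same scale. DRP2 was lowest, at 0.409 in WT and 0.0721 in NUAK2-CR. UTRN made up 82.5% ± 1.09 of the family sum in WT and 86.3% ± 2.01 in NUAK2-CR, DMD 11.9% ± 1.36 and 13.1% ± 2.13, and DRP2 5.60% ± 0.59 and 0.62% ± 0.13. Utrophin was thus the main transcript of the family in both groups, and the share of DMD overlapped between them. The sum of the family was 7.32 ± 0.39 in WT and 11.6 ± 1.61 in NUAK2-CR. Counts per gene do not separate the short dystrophin forms, which start at internal promoters, from the full-length form, so dividing by the length of the full-length transcript gives too low a level for DMD if short forms are present.

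DAG1 encodes both chains of dystroglycan, the laminin receptor at the centre of the complex, and lies at chromosome 3, 49468948 to 49535615, plus strand. Normalized counts of DAG1 were 12847, 15668 and 14963 in WT and 16774, 16263 and 16111 in NUAK2-CR. All 3 NUAK2-CR libraries were above the highest WT library, but by a small margin. DAG1 had a log2 fold change of 0.18 (SE 0.08), or 0.10 without WT replicate 1, and was not called. Per length, DAG1 had the highest level of the 9 genes, at 71.7 ± 7.27 CPM per kilobase in WT and 81.1 ± 1.72 in NUAK2-CR (SD, n = 3 each).

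The sarcoglycans are small single-pass membrane proteins that assemble beside dystroglycan. SGCE encodes epsilon-sarcoglycan, the form found outside striated muscle, from a gene that is imprinted and expressed from the paternal copy, at chromosome 7, 94584980 to 94656133, minus strand. Normalized counts of SGCE were 2506, 3240.3 and 3339.8 in WT and 3601, 3721 and 3825 in NUAK2-CR. WT replicate 1 was the lowest library, and the groups did not overlap. SGCE had a log2 fold change of 0.30 (SE 0.10), with means of 3029 ± 455 and 3715 ± 112 (SD, n = 3 each). Without WT replicate 1 the log2 fold change of SGCE was 0.18.

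SGCB encodes beta-sarcoglycan, a core unit of the sarcoglycan assembly, at chromosome 4, 52020706 to 52038299, minus strand. For SGCB, the normalized counts were 2772, 3525 and 3489 in WT and 4023, 4485 and 4352 in NUAK2-CR. As for SGCE and DAG1, WT replicate 1 was the lowest library and the groups did not overlap. SGCB had a log2 fold change of 0.40 (SE 0.09), with means of 3262 ± 425 and 4287 ± 238 (SD, n = 3 each).

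SGCD encodes delta-sarcoglycan, which pairs with beta-sarcoglycan at the core of the assembly, at chromosome 5, 155727832 to 156767788, plus strand. Its raw counts were 79, 39 and 56 in WT and 0 in all 3 NUAK2-CR libraries. The normalized counts in WT were 52.5, 37.6 and 60.2, a mean of 50.1 ± 11.5 (SD, n = 3). Taking a count of 0 to allow up to 3 counts in each library, the level of SGCD in NUAK2-CR was lower by at least 14.02-fold. This limit covers counting error only. SGCD was already a rare transcript in WT, where its level per length was 0.142 ± 0.0326 CPM per kilobase.

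SGCA, which encodes alpha-sarcoglycan of skeletal and cardiac muscle, lies at chromosome 17, 50166005 to 50175928, plus strand, and was near the limit of detection. It had 1, 0 and 6 raw counts in the WT libraries and 0, 4 and 6 in NUAK2-CR. The groups overlapped, and at this depth no difference was detectable. Zeta-sarcoglycan, from the list of other subunits, was as low: SGCZ had 2, 4 and 2 raw counts in WT and 0 in all 3 NUAK2-CR libraries. SSPN encodes sarcospan, the membrane partner of the sarcoglycans, and rose from 242, 264 and 305 to 399.98, 356 and 409.5 normalized counts. The log2 fold change of SSPN was 0.53 (SE 0.13, edgeR quasi-likelihood test, adjusted p = 0.00527).

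Per length, SGCE was the most abundant sarcoglycan, at 43.2 ± 6.50 CPM per kilobase in WT and 53.0 ± 1.598 in NUAK2-CR, followed by SGCB at 20.5 ± 2.67 and 26.9 ± 1.49 (SD, n = 3 each). SGCE made up 67.6% ± 0.58 of the sum of SGCA, SGCB, SGCD, SGCE and SGCZ in WT and 66.3% ± 0.92 in NUAK2-CR. SGCB made up 32.1% ± 0.66 and 33.6% ± 0.88. SGCD made up 0.23% ± 0.06 of the sum in WT, so its absence from the NUAK2-CR counts left the proportions of the family nearly as they were. The sum was 63.9 ± 9.17 in WT and 80.003 ± 2.93 in NUAK2-CR.

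**Figure D2:**
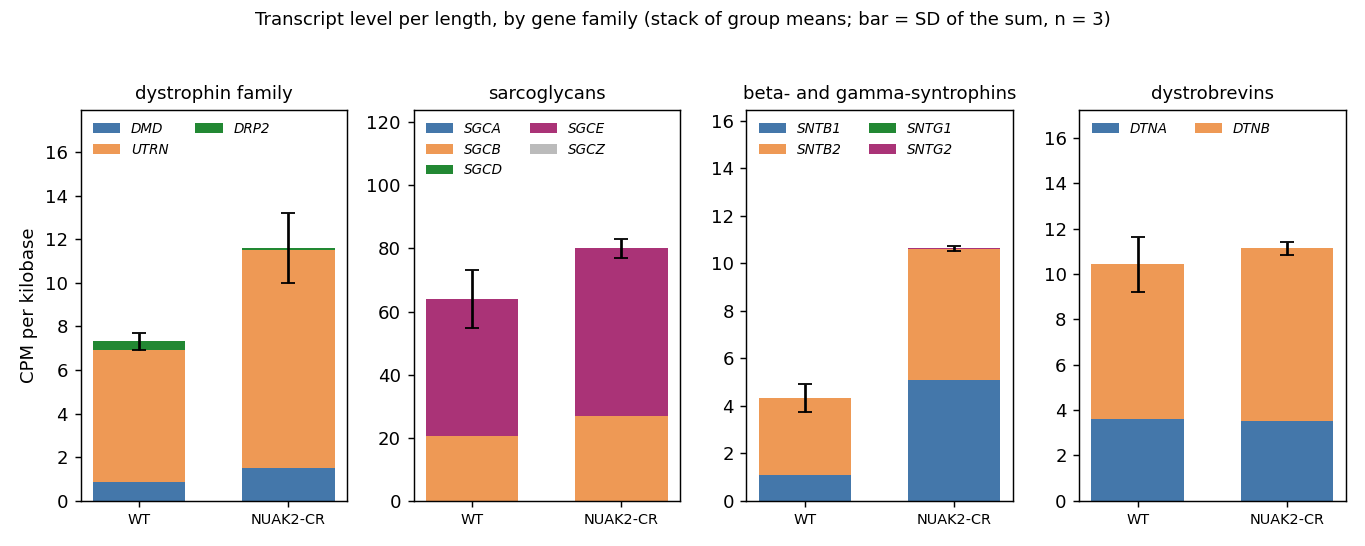
Transcript level per length of the dystrophin family, sarcoglycans, beta- and gamma-syntrophins and dystrobrevins, as stacked group means in CPM per kilobase from 0 with a separate axis for each family; the bar is the SD of the sum over 3 libraries. The syntrophin panel goes from 4.33 to 10.6 with a larger SNTB1 layer, and the dystrobrevin sum from 10.4 to 11.1.

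Syntrophins are adaptors with a PDZ domain that bind dystrophin, utrophin and dystrobrevin and recruit channels and signalling proteins. SNTB1 encodes beta-1-syntrophin at chromosome 8, 120535756 to 120812046, minus strand, and had the largest rise of the 9 genes. In WT, SNTB1 had 185, 226 and 193 normalized counts, and in NUAK2-CR it had 900.3, 943 and 990.2. The groups lay far apart beside the spread within either, with means of 202 ± 21.4 and 945 ± 45.0 (SD, n = 3 each). SNTB1 had a log2 fold change of 2.23 (SE 0.11), a 4.70-fold higher level.

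The other beta-syntrophin gene also rose. SNTB2, which encodes beta-2-syntrophin, had 1442, 1112 and 991 normalized counts in the WT libraries and 2119, 2031 and 1876 in NUAK2-CR. This was a log2 fold change of 0.76 (SE 0.12, edgeR quasi-likelihood test, adjusted p = 0.000163). The gamma-syntrophins were near 0, with raw counts of 0 in WT and 1, 0 and 4 in NUAK2-CR for SNTG1, and of 0, 2 and 0 in WT and 2, 2 and 0 in NUAK2-CR for SNTG2.

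Per length, the balance of the beta- and gamma-syntrophins differed between the groups. SNTB1 made up 25.5% ± 4.56 of their sum in WT and 48.0% ± 2.77 in NUAK2-CR, and SNTB2 made up 74.3% ± 4.77 and 51.7% ± 2.66 (SD, n = 3 each). In NUAK2-CR the levels of SNTB1, 5.10 ± 0.24 CPM per kilobase, and SNTB2, 5.49 ± 0.34, were close to each other, whereas in WT they were 1.09 ± 0.12 and 3.23 ± 0.64. Their sum was 4.33 ± 0.60 in WT and 10.6 ± 0.11 in NUAK2-CR.

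Dystrobrevins are dystrophin relatives that bind syntrophins and pair with dystrophin or utrophin. DTNA encodes alpha-dystrobrevin, the form of muscle and glia, at chromosome 18, 34493312 to 34891844, plus strand. DTNA had 881, 911 and 873 normalized counts in the WT libraries and 898, 854 and 848 in NUAK2-CR. The groups overlapped, with means of 888 ± 19.8 and 866 ± 27.4 (SD, n = 3 each) and a log2 fold change of -0.04 (SE 0.08). DTNB, the beta form, had 647, 490.1 and 719 in WT and 699.7, 700.7 and 669 in NUAK2-CR, and did not pass the test (log2 fold change 0.16, SE 0.13, edgeR adjusted p = 0.320). Per length, DTNB held 65.1% ± 5.05 of the dystrobrevin sum in WT and 68.4% ± 0.58 in NUAK2-CR, and the sum was 10.4 ± 1.21 and 11.1 ± 0.28 CPM per kilobase.

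In order of level per length in WT, the genes ran DAG1, SGCE, SGCB, UTRN, DTNA, SNTB1, DMD, SGCD and SGCA. DTNA was at 3.60 ± 0.0804 CPM per kilobase in WT and 3.51 ± 0.11 in NUAK2-CR. In NUAK2-CR, SNTB1 stood above DTNA. The WT values of SNTB1 (1.09 ± 0.12) and DMD (0.872 ± 0.0970), neighbours in this order, differed by about the sum of their SDs. So did those of SGCD (0.142 ± 0.0326) and SGCA (0.0442 ± 0.0662), of which SGCA was near the floor of 3 counts. Family members share little sequence: the longest run of identical bases between 2 canonical transcripts was 21 for DMD and DRP2, 20 for DMD and UTRN, 19 for SNTB1 and SNTB2, 16 for DTNA and DTNB and 15 between any pair of sarcoglycans, and the reads were 100 bases long.

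Positions on the chromosomes were examined because the genes around NUAK2 also differed between groups, with a median log2 fold change of -0.82 over the 20 nearest tested genes. Around SNTB1, 18 of the 20 nearest tested genes were called higher and 0 lower by the edgeR test, with a median log2 fold change of 0.84. SNTB1 exceeded this median by 1.40 on the log2 scale. Around DRP2, 14 of 20 genes were called lower and 0 higher, with a median of -0.63, and around SGCD 10 were lower and 2 higher, with a median of -0.42. DMD moved against its neighbours, of which 9 were lower and 2 higher, with a median of -0.37. The medians around UTRN (0.15), SGCE (0.14), DTNA (0.11), DAG1 (0.05) and SGCB (0.03) were smaller than 0.2 in size, and around SGCA the median was -0.56. The part of such regional differences in the values of SNTB1, DRP2 and SGCD was not tested.

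**Figure D3:**
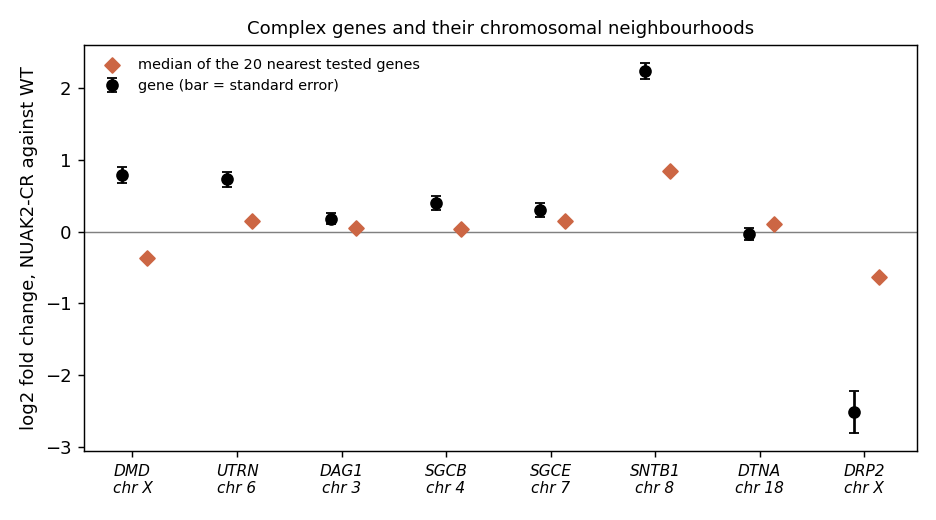
Log2 fold change (NUAK2-CR against WT) of 7 complex genes and DRP2, as circles with the SE, beside the median of the 20 tested genes that start nearest on the same chromosome, as diamonds. SNTB1 at 2.23 and its neighbours at 0.84 lie on the same side of 0, and DMD at 0.78 and its neighbours at -0.37 on opposite sides; SGCD, at 0 counts in NUAK2-CR, is not drawn.

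Genes that overlap or lie within 10 kb of the complex genes were listed, because the read counting was run with default parameters, which do not use strand. SGCE overlaps CASD1, a sialic acid O-acetyltransferase gene on the opposite strand, which rose from 638 ± 84.5 to 983 ± 34.8 normalized counts (SD, n = 3 each), a log2 fold change of 0.63 (SE 0.10, edgeR quasi-likelihood test, adjusted p = 0.000240). Reads of the shared stretch cannot be assigned to SGCE or CASD1, so the value of SGCE is uncertain to that extent. PEG10, an imprinted gene derived from a retrotransposon, starts 192 bases from SGCE in head-to-head orientation and did not pass the test, with 44825 ± 3140 and 39681 ± 1444 normalized counts and a log2 fold change of -0.18 (SE 0.07, edgeR adjusted p = 0.0528). LRRC66, 343 bases from SGCB, had 45.5 and 37.0 normalized counts and did not pass the test (log2 fold change -0.30, SE 0.32, edgeR adjusted p = 0.453). COL1A1, 8173 bases from SGCA, fell by 1.15 on the log2 scale (SE 0.12, edgeR adjusted p = 5.54e-06). TAF7L, 3755 bases from DRP2, did not pass the filter. The listed genes inside DMD (MIR3915 and MIR548F5), inside SNTB1 (SNTB1-AS2) and inside SGCA (H1-9P) were at 0 counts in all 6 libraries.

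The 3 tested genes whose profile over the 6 libraries lay nearest to SNTB1 were PIEZO2, DUSP6 and LRATD2, at Euclidean distances of 0.132, 0.140 and 0.182 in centred log2 normalized counts. PIEZO2 encodes a mechanically gated cation channel, and its mean was 79.2 normalized counts in the WT libraries and 356 in NUAK2-CR. DUSP6, a phosphatase that acts on ERK, had means of 472 and 2315. LRATD2, which like SNTB1 is on chromosome 8, had means of 969 and 4418. With 3 libraries in each of 2 groups, such likeness mostly records the size of the group difference. For DTNA, which had the lowest log2 fold change once genes under a mean of 100 normalized counts were set aside, the nearest profiles were MSL1, BBS7 and GIT2, at distances of 0.0468, 0.0511 and 0.0568. Their log2 fold changes were -0.02, -0.04 and -0.02.

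The remaining subunits of the complex formed a list of 9 genes, among them SGCZ, SNTB2, SNTG1, SNTG2, DTNB, SSPN and DRP2, of which 5 passed the filter. By the edgeR test, 3 rose, 1 fell and 1 was not called, with a median log2 fold change of 0.29 against -0.01 over all tested genes. In this list 80.0% of tested genes were called, against 54.5% of all tested genes. Over this list and the 3 lists that follow, 51 of 59 genes were tested, 17 rose and 14 fell. That was 60.8% called, near the share over all tested genes.

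Dystroglycan binds laminin only after a long sugar chain has been built on it, and 18 genes of that glycosylation pathway were all tested. By the edgeR test, 2 rose, 5 fell and 11 were not called, and the median log2 fold change was 0.00. The share called was 38.9%, against 54.5% of all tested genes. The genes that fell were POMT1, POMGNT1, LARGE2, DPM3 and DOLK, with log2 fold changes between -0.80 for LARGE2 and -0.24 for POMT1. POMGNT1, an enzyme that extends the O-mannose chain, had 6903, 7339 and 8104 normalized counts in the WT libraries and 4953, 5234 and 4992 in NUAK2-CR. Every NUAK2-CR library was under every WT library, with a log2 fold change of -0.56 (SE 0.07, edgeR quasi-likelihood test, adjusted p = 4.13e-05). The LARGE2 call was near the threshold (SE 0.31, edgeR adjusted p = 0.0415), and its level per length was 0.549 CPM per kilobase in WT and 0.313 in NUAK2-CR.

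Of 14 genes for extracellular ligands of dystroglycan, 13 were tested, with a median log2 fold change of 0.32. By the edgeR test 6 rose, 4 fell and 3 were not called. The share called was 76.9%, against 54.5% of all tested genes. Those that rose were the laminin chains LAMA5 and LAMB1, the proteoglycan genes AGRN, HSPG2 and BGN, and SLIT2, a guidance ligand, with log2 fold changes from 0.43 for AGRN to 0.94 for SLIT2. The laminin chains LAMA1 (-0.40) and LAMC1 (-0.43) fell, so laminin chains moved in both directions. NRXN3, which encodes a neurexin of nerve terminals, had 165, 244 and 257 normalized counts in the WT libraries and 73.6, 82.0 and 86.7 in NUAK2-CR. All 3 NUAK2-CR libraries were under the lowest WT library, and the log2 fold change was -1.45 (SE 0.21, edgeR quasi-likelihood test, adjusted p = 8.62e-05). NRXN2, another neurexin gene, had 29, 16 and 23 raw counts in the WT libraries and 2, 4 and 0 in NUAK2-CR. The log2 fold change of NRXN2 was -2.98 (SE 0.70). Like SGCD, NRXN2 passed the filter only through its WT libraries, so no p-value is given for it. It is 1 of the 4 ligand genes counted as falling. The NUAK2-CR counts of NRXN2 are at or near the floor of 3 counts, so the size of its fold change is not well determined.

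Of 18 genes for cytoplasmic and membrane partners, 15 were tested, with a median log2 fold change of -0.03. By the edgeR test 6 rose, 4 fell and 5 were not called. The share called was 66.7%, against 54.5% of all tested genes. PLEC encodes plectin, which links intermediate filaments to dystroglycan and to integrins, and had 14485, 12929 and 12115 normalized counts in the WT libraries and 32549, 38838 and 29359 in NUAK2-CR (log2 fold change 1.35, SE 0.10, edgeR adjusted p = 3.55e-07). ITGA7, the laminin-binding integrin chain of muscle, had 2481, 2341 and 2507 in WT and 6571, 6387 and 6091 in NUAK2-CR (1.38, SE 0.07, edgeR adjusted p = 7.00e-09). DYSF, the membrane repair protein dysferlin, had 195, 136 and 154 in WT and 465, 469 and 333 in NUAK2-CR (1.37, SE 0.18, edgeR adjusted p = 3.86e-05). For each of these genes every NUAK2-CR library exceeded every WT library.

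Of the partners that fell, KCNJ10 had the largest difference. It encodes Kir4.1, the potassium channel that the complex anchors at astrocyte endfeet, and had 60, 55 and 57 raw counts in the WT libraries and 0, 4 and 0 in NUAK2-CR. KCNJ10 had a log2 fold change of -4.90 (SE 0.70). Like SGCD, KCNJ10 passed the filter only through its WT libraries, so no p-value is given for it. With counts this low, the size of its fold change depends on the prior count and on 1 library. Without NUAK2-CR replicate 2, the one NUAK2-CR library above 0, it was -8.73. AQP4, the water channel of the same endfeet, was at 2 raw counts in each WT library and at 0 in NUAK2-CR, and was not tested. NOS1, the nitric oxide synthase that binds syntrophin in muscle, and CAV3, the muscle caveolin, had at most 6 raw counts in any library. GRB2, ANK3 and SYNC also fell, and MAPK12, MAST1 and ITGB1 rose, each by less than 1 on the log2 scale.

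**Figure D4:**
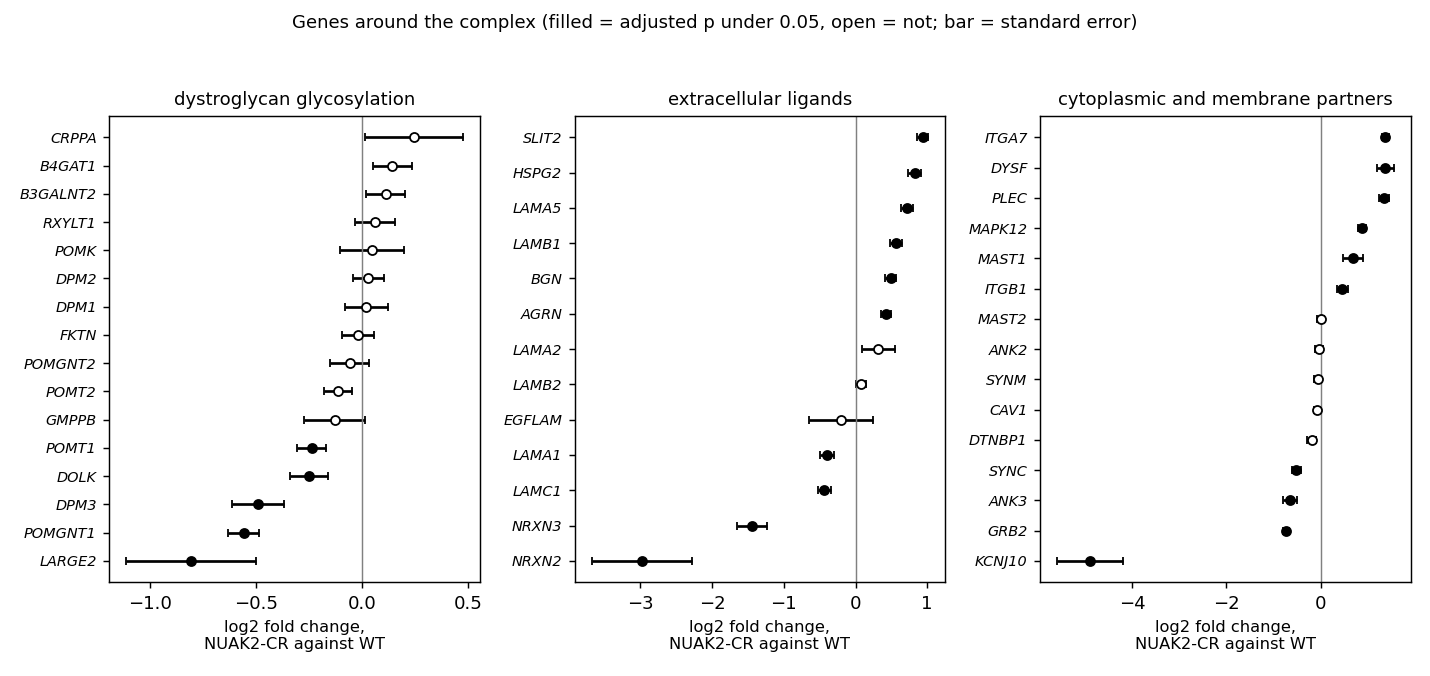
Log2 fold change (NUAK2-CR against WT) of tested genes from 3 lists around the complex, with the SE as bars, ordered by fold change and with a separate horizontal axis for each list; filled circles passed an adjusted p under 0.05 in edgeR and open circles did not. LARGE2 at -0.80 is the lowest of the glycosylation genes drawn, and KCNJ10 at -4.90 stands apart among the cytoplasmic and membrane partners. NRXN2 and KCNJ10 are drawn filled but passed the low-count filter only through their WT libraries.

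Cell type markers were measured beside these values. For comparison, 26.3% of all tested genes were higher in NUAK2-CR and 28.2% were lower. Of 8 glial and glioma markers, all tested, 6 were lower in NUAK2-CR and 0 higher by the edgeR test, and their summed level was between 323322 and 357961 normalized counts in the WT libraries and between 138229 and 144544 in NUAK2-CR. Of 10 skeletal muscle markers only MYH3 passed the filter and it was not called, with sums of 76.3 to 142 in WT and 98.9 to 155 in NUAK2-CR. MYF5 was at 0 in every library, and MYOD1, MYOG and TNNT3 had at most 3 counts. Of 7 smooth muscle markers 5 were tested, 3 were higher and 1 lower, with sums of 2532 to 3263 in WT and 5651 to 6582 in NUAK2-CR. Of 5 neuronal markers 4 were tested and 3 were higher, with sums of 450 to 583 in WT and 1423 to 1708 in NUAK2-CR, and ELAVL4 was at 0 throughout. STMN2, 1 of the 3, had 2, 5 and 0 raw counts in WT and passed the filter only through NUAK2-CR. Of 5 endothelial markers, all tested, 2 were higher and 1 lower, with sums of 248 to 336 in WT and 186 to 218 in NUAK2-CR. PECAM1, 1 of the 2, had 2, 0 and 0 raw counts in WT and also passed only through NUAK2-CR. The calls of STMN2 and PECAM1 are therefore not used as tests. Of 4 immune markers 2 were tested and both were lower, with sums of 846 to 964 in WT and 239 to 283 in NUAK2-CR, and AIF1 was at 0. The fall of 6 glial and glioma markers went the same way as KCNJ10. The other markers of that list, ALDH1L1 (log2 fold change 0.91) and SLC1A3 (0.26), went up without being called (edgeR adjusted p = 0.119 and 0.0564). The summed smooth muscle and neuronal markers were higher, the same way as DMD, UTRN, SNTB1 and ITGA7. In these sums, the mean of ACTA2 went from 93.0 to 2138 normalized counts and that of SNAP25 from 64.6 to 754. However, CNN1 of smooth muscle fell by 1.52 on the log2 scale (edgeR adjusted p = 0.000393). RBFOX3 of the neuronal list went down without being called (log2 fold change -0.68, edgeR adjusted p = 0.328). The part of any of these cell type markers in the results was not tested.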

How the data were processed

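RNA was isolated with TRIzol, the Illumina Stranded mRNA Prep kit was used for the libraries, and pairs of reads of 100 bases were sequenced. The authors used Trimmomatic, then HISAT2 on hg38, then featureCounts, and the deposited values are its raw counts per gene; featureCounts was run with default parameters, which do not use strand, and the annotation is not given in the sources used here. Of 28395 NCBI gene identifiers, 27745 matched a symbol.

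Counts were analysed in R 4.3.3 with edgeR 4.0.16 (filterByExpr, TMM, quasi-likelihood F test, prior count 0.125), with Benjamini-Hochberg adjustment over 14873 genes. The SE of a log2 fold change was its size divided by the square root of F. The common biological coefficient of variation was 0.101. In a run on simulated data over 14819 genes, edgeR recovered 100 of 100 genes changed 2-fold and 100 of 100 changed 8-fold, with 9 false calls among 14619 unchanged genes. That run changed only 100 genes at each fold, whereas 54.5% of tested genes were called in the data. Recovery where so large a share of genes differs was not tested. Transcript lengths, strands and transcript starts came from GENCODE 44, and gene positions and promoters from RefSeq. DESeq2 1.42.0 and other scalings, filters, omitted libraries and a replicate block were alternatives. No protein sequences are shown.

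The 9 complex genes and all lists were chosen with earlier results of these data known. Beyond the 9, the text names NUAK2, other subunits, genes of each partner list with an absolute log2 fold change over 1 and an adjusted p under 0.05 (at most 5 each way), the 3 nearest profiles of 2 genes, and neighbours within 10 kb. Other list genes named were chosen after their values were seen. Some list genes enter the list counts but are not reported here.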

Additional observations from a re-analysis of the deposited data

How the results depend on the processing

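Requiring at least 10 counts in every library removed SGCD, so the count of complex genes called lower went from 1 to 0 by construction. Under the same filter the ligand genes called lower went from 4 to 3, and the partner genes called lower from 4 to 3. Leaving out 1 library at a time gave between 1 and 2 glycosylation genes higher and between 3 and 4 lower, against 2 and 5 with all libraries: 1 higher without NUAK2-CR replicate 2, NUAK2-CR replicate 3 or WT replicate 2, and 3 lower without NUAK2-CR replicate 1, 2 or 3 or WT replicate 3. These fits hold fewer samples. The same omissions gave between 4 and 6 complex genes called higher, with SGCE lost without NUAK2-CR replicate 2 or 3 and DAG1 gained without WT replicate 2, and the bound for SGCD lay between 12.6- and 15.8-fold. The log2 fold changes of the other 7 tested complex genes kept their direction under all 13 alternatives run for each, but without WT replicate 1 those of SGCE and DAG1 shrank from 0.30 to 0.18 and from 0.18 to 0.10. At an absolute log2 fold change over 1 in place of 2, 2 ligand genes and 4 partner genes passed in place of 1 and 1. Same-numbered libraries did not deviate together (r = 0.04, -0.02 and 0.04), so the numbers were not taken as pairs. With a replicate block, 5 complex genes were higher and 1 lower, 4 glycosylation genes were lower, and 3972 genes in all were higher and 4195 lower, against 3912 and 4195 without it. DESeq2 called 3937 higher and 4134 lower. Depth limits SGCA, SGCZ, SNTG1 and SNTG2, whose counts of 0 to 6 allow no statement on a difference.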
